A study of Mus musculus with 12 samples.

Results

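The genes described here build and size the actin core of the stereocilium, the mechanosensory projection of a cochlear hair cell. They were taken by name from the count tables and are Espn, Espnl, Fscn2, Pls1 and Triobp, which bundle actin filaments, Eps8, Eps8l2, Diaph1 and Grxcr1, which act on filament growth or organization, and Ptprq, a membrane protein of the stereocilium base, 10 of 55348 genes in all. All 10 passed the filter on low counts, with 19052 genes tested. The names were chosen with earlier results of these libraries known, and Espn, Espnl, Diaph1 and Ptprq were moreover selected on these libraries in the study, so that their direction in the double mutants is not independent evidence. By quantitative PCR, the study reported Espnl, Diaph1 and Ptprq as significantly higher in the double mutants than in wild-type, and found no significant difference for Espn.

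A stereocilium is a rod of parallel actin filaments held together by crosslinking proteins, anchored by a dense rootlet in the cuticular plate. The rods stand in rows of graded height, and proteins at the filament tips set the length of each row. Loss of many of these proteins causes deafness in mice and humans, and the clarins are small membrane proteins needed for hair bundle integrity.

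The tissue was the mouse organ of Corti, where the hair cells sit, taken at postnatal day 21 without the stria vascularis and the modiolus and used for RNA sequencing. The 4 genotypes had 3 libraries each, and the labels and methods do not say whether a library is 1 animal or a pool. Between 30008679 and 41049302 reads per library were counted on genes. Clrn1-/- mice carried a germline deletion of a Clrn1 exon made with PGK-cre, Clrn2-/- mice carried the clarinet nonsense mutation of Clrn2, and Clrn1-/-Clrn2-/- mice carried both, each in every cell of the body. Wild-type mice came from separate breedings and were not littermates, so that breeding and genotype cannot be told apart in any comparison with wild-type. All 3 mutants were compared with the same 3 wild-type libraries.

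Clrn1 read 23.8 to 28.6 CPM (read counts over the library size, scaled between libraries by edgeR's TMM factors) in wild-type, 25.8 to 31.5 in Clrn2-/-, 2.69 to 3.04 in Clrn1-/- and 1.77 to 2.71 in the double (Clrn1-/-Clrn2-/-) mutants. Clrn2 read 1.89 to 3.24 CPM in wild-type and 1.04 to 1.38 in Clrn2-/- mice, but was at 0.854 to 1.04 in Clrn1-/- mice as well, so that its level does not tell the single mutants apart. No marker of hair cells, supporting cells or neurons was at 0 in any library. In such bulk tissue, a different number of cells of a type and a different amount of RNA per cell cannot be told apart.

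RefSeq promoter sequence on GRCm38.p6 was at hand for 7 of the 10 genes, in 10 windows of 250 bases that end at the start site. Windows for Eps8, Diaph1 and Ptprq were not used here. The windows shown are the first of the 3 Espn windows, the Espnl window and the Pls1 window, from 3 bundling genes whose mean levels were highest in the double mutants, and the Eps8l2 window, from a gene whose level was lowest in Clrn1-/- mice. They lie at chr4:152152390-152152639 (minus strand), chr1:91321825-91322074 (plus), chr9:95845280-95845529 (minus) and chr7:141338752-141339001 (plus), and are written 5′ to 3′ in the direction of the gene. Capitals mark the E-box CAGCTG, a form bound by basic helix-loop-helix factors, and the GC box GGGCGG, both searched on each strand.
Espn: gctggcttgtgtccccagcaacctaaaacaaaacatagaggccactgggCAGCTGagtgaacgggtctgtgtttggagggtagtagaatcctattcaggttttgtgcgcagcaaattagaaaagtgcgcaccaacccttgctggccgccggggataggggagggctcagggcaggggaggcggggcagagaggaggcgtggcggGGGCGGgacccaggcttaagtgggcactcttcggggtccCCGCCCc
Espnl: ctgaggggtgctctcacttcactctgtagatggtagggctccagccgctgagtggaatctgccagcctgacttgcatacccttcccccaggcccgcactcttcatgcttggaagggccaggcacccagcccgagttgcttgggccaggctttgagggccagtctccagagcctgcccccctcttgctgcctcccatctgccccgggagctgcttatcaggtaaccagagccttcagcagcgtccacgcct
Pls1: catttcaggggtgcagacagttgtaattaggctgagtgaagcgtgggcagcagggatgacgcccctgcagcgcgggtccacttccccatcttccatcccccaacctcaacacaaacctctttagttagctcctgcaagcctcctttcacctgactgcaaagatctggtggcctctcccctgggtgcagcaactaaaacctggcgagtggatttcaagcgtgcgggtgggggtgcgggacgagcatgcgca
Eps8l2: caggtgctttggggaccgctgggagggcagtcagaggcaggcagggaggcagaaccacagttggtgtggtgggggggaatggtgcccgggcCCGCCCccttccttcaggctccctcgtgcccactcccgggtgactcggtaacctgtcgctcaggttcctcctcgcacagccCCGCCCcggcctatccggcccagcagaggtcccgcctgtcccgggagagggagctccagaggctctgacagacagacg
The Espn window held 1 CAGCTG and 2 GC boxes, and the Eps8l2 window held 2 GC boxes. Neither motif was found in the Espnl or Pls1 window. CAGCTG was present in 4271 of 32851 promoters of the same length (13%) and GGGCGG in 32.7%. The general E-box CANNTG, which includes CAGCTG, was found once in the Espn and Espnl windows and 2 times in the Pls1 and Eps8l2 windows, against 66.2% of all promoters with at least 1. Such matches describe the letters alone.

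Because long genes collect more reads, levels were compared between genes as CPM per kilobase of exons. In wild-type mice, Eps8l2 had the highest level at 9.73 ± 0.68 CPM per kilobase (SD, n = 3), followed by Diaph1 at 7.85 ± 0.33, Pls1 at 6.25 ± 0.20 and Triobp at 5.95 ± 0.17. Fscn2 followed at 4.87 ± 1.04, Espn at 3.04 ± 0.29 and Ptprq at 2.25 ± 0.62. Eps8 at 1.16 ± 0.19, Grxcr1 at 0.920 ± 0.119 and Espnl at 0.365 ± 0.263 CPM per kilobase were the lowest. The wild-type libraries of neighbours in this order overlapped for Pls1 and Triobp, Triobp and Fscn2, Espn and Ptprq, and Eps8 and Grxcr1, and did not for the other neighbours. In the double mutants, Diaph1 led at 11.8 ± 0.3 CPM per kilobase, ahead of Eps8l2 at 10.5 ± 0.6 and Pls1 at 9.14 ± 0.14, and both Espn at 4.82 ± 0.03 and Ptprq at 4.36 ± 0.30 stood above Fscn2 at 3.91 ± 0.15.

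**Figure D1:**
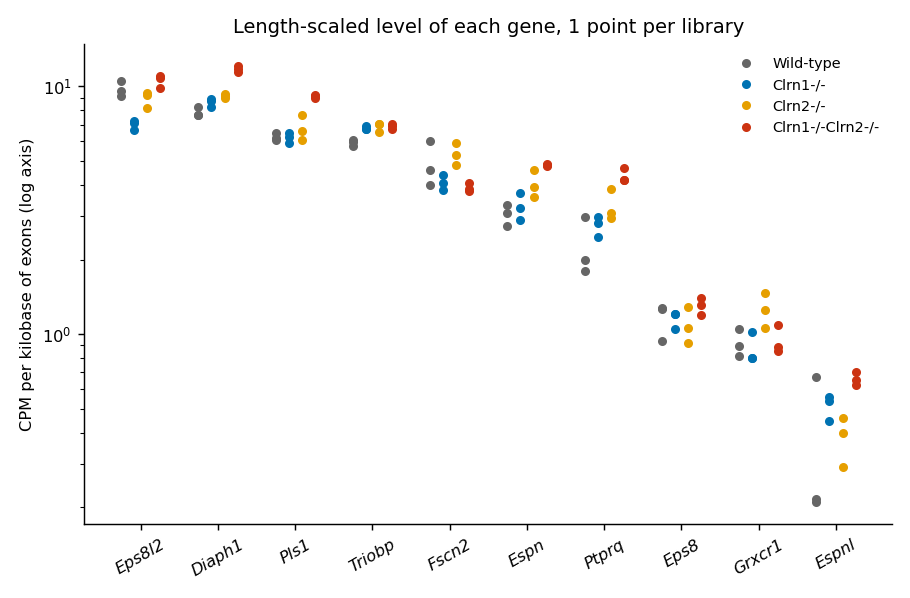
Level of each gene in CPM per kilobase of exons (log axis), with 1 point per library and colours for the 4 genotypes, ordered by the wild-type mean. Eps8l2 and Diaph1 are at the top, and Espnl, at 0.365 CPM per kilobase in wild-type mice, is at the bottom.

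Espn encodes espin, the actin bundler that runs along the shaft of the stereocilium (chr4:152120331-152152371, minus strand, on GRCm38 as are all positions given). It read 22.6, 27.4 and 25.6 CPM in wild-type mice, 23.8, 26.8 and 30.7 in Clrn1-/-, 32.5, 29.7 and 38.1 in Clrn2-/- and 39.9, 39.6 and 40.1 in the double mutants. All Clrn2-/- and double mutant libraries were above the highest wild-type library, whereas the Clrn1-/- libraries overlapped with wild-type. Espn was over-expressed in the double mutants, with a log2 change of 0.66 ± 0.10 (SE; edgeR adjusted p = 4.68e-05), and was at 0.58 without wild-type replicate 1, just short of the call. Over-expressed here means an adjusted p of at most 0.05 with a change of at least 1.5-fold. In Clrn2-/- mice, the log2 change of 0.41 ± 0.10 passed the adjusted p alone (edgeR, 0.00939; 0.0504 without Clrn2-/- replicate 3), while the value in Clrn1-/- mice was 0.11 ± 0.10 (0.448). The double mutants were above Clrn1-/- mice by 0.55 ± 0.10 (edgeR adjusted p = 3.31e-04) and above Clrn2-/- mice by 0.25 ± 0.09 (0.0568; 0.0143 without Clrn2-/- replicate 3) on the log2 scale. The counts are summed over a gene and do not separate the forms of Espn that start in its 3 promoter windows. The summed CPM of 7 outer hair cell markers was 163 to 179 in wild-type mice, 170 to 223 in Clrn1-/-, 203 to 266 in Clrn2-/- and 234 to 247 in the double mutants. In the latter, 3 of the 7 were called higher, Ocm, Chrna9 and Strc (log2 change 0.97, 0.99 and 0.65), and 1 was called lower. The part of these 7 markers in the Espn value was not tested.

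Espnl encodes the espin-like protein, a relative of espin in the stereocilia of developing and mature hair cells (chr1:91322075-91348306, plus strand). It read 1.18, 3.64 and 1.14 CPM in wild-type mice, 2.91, 2.43 and 3.04 in Clrn1-/-, 1.59, 2.17 and 2.50 in Clrn2-/- and 3.84, 3.57 and 3.40 in the double mutants. Wild-type replicate 2 stood about as high as the double mutants, and the other wild-type libraries were below every mutant library. Espnl was over-expressed in the double mutants with a log2 change of 0.86 ± 0.32 (edgeR adjusted p = 0.0443), although their libraries overlapped with wild-type. Without wild-type replicate 2, the value was 1.62 (edgeR adjusted p = 1.60e-05) in the double mutants, 1.27 (4.02e-04) in Clrn1-/- and 0.85 (0.0173) in Clrn2-/- mice, and all 3 mutants were called. Without wild-type replicate 1 or 3, it was 0.59 or 0.56 in the double mutants and was no longer called (edgeR adjusted p = 0.180 and 0.166). The call was also lost without any other single library except Clrn2-/- replicate 1, with an adjusted p of 0.0541 to 0.106 by edgeR. With all libraries it was 0.49 ± 0.32 in Clrn1-/- (edgeR adjusted p = 0.287) and 0.07 ± 0.34 in Clrn2-/- mice (0.919), from 42 to 133 reads per library. The summed CPM of 7 markers of the stria vascularis was also highest among wild-type libraries in replicate 2, at 366 against 325 and 240, and in the double mutants Kcnj10 was called higher (log2 change 0.67) and Kcne1, Dct and Esrrb lower (-1.65, -1.93 and -0.95). The part of these 7 markers in the Espnl value was not tested.

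Fscn2 encodes fascin-2, a crosslinker that maintains stereocilium length (chr11:120361534-120368168, plus strand). It read 8.40, 9.72 and 12.7 CPM in wild-type mice, 8.57, 8.07 and 9.27 in Clrn1-/-, 11.2, 10.2 and 12.4 in Clrn2-/- and 7.999, 8.11 and 8.61 in the double mutants. The libraries of every mutant overlapped with wild-type, and the Clrn2-/- libraries were above those of both other mutants. Against wild-type, the log2 change was -0.25 ± 0.12 in Clrn1-/-, 0.13 ± 0.12 in Clrn2-/- and -0.32 ± 0.13 in the double mutants, with none past the test (edgeR adjusted p = 0.151, 0.529 and 0.0580). Without wild-type replicate 1, the lowest of its group, they were -0.37 in Clrn1-/- mice and -0.45 in double mutants (edgeR adjusted p = 0.0320 and 0.00788), and without wild-type replicate 3 the value in Clrn2-/- mice was 0.32 (0.0497). Of the 10 genes, Fscn2 alone had a negative value in the double mutants with all libraries. It was lower than in Clrn2-/- mice by the adjusted p alone, in the double mutants with a log2 difference of -0.45 ± 0.13 (edgeR adjusted p = 0.0137) and in Clrn1-/- mice with -0.39 ± 0.12 (0.0412). The former had an adjusted p of 0.0502 without Clrn2-/- replicate 3, and the latter of 0.0524 to 0.147 without 1 of 5 libraries by edgeR (Clrn1-/- replicate 1 or 2, Clrn2-/- replicate 1 or 3, double mutant replicate 2).

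Pls1 encodes plastin-1 (fimbrin), an abundant crosslinker of the stereocilium (chr9:95752642-95845311, minus strand). It read 23.7, 24.0 and 25.2 CPM in wild-type mice, 22.9, 25.3 and 24.4 in Clrn1-/-, 23.7, 25.6 and 29.9 in Clrn2-/- and 36.1, 35.7 and 35.0 in the double mutants. The double mutant libraries lay close together above every library of the other genotypes, which overlapped with each other. The log2 fold change in the double mutants, 0.55 ± 0.07, passed the adjusted p (edgeR, 1.68e-05) and was just short of the fold minimum of 0.58 on the log2 scale, which it reached at 0.59 with library size alone as the scale. It was -0.01 ± 0.07 in Clrn1-/- and 0.12 ± 0.07 in Clrn2-/- mice (edgeR adjusted p = 0.967 and 0.309), and the double mutants were above these by 0.55 ± 0.07 and 0.43 ± 0.07 (edgeR adjusted p = 2.53e-05 and 3.65e-04).

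Triobp encodes a protein that wraps and bundles the rootlet filaments (chr15:78947724-79005869, plus strand). It read 73.6, 71.0 and 75.0 CPM in wild-type mice, 82.9, 82.4 and 84.9 in Clrn1-/-, 87.1, 80.8 and 86.8 in Clrn2-/- and 85.2, 86.7 and 82.9 in the double mutants. Each mutant stood above wild-type by a similar step, and the mutants overlapped with each other. The log2 change was 0.19 ± 0.04 in Clrn1-/-, 0.21 ± 0.04 in Clrn2-/- and 0.21 ± 0.04 in double mutants. Each passed the adjusted p (edgeR, 0.00326, 0.00251 and 6.82e-04) and was far from the fold minimum. Gene counts do not separate the long hair cell forms of Triobp from the short widely expressed form.

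**Figure D2:**
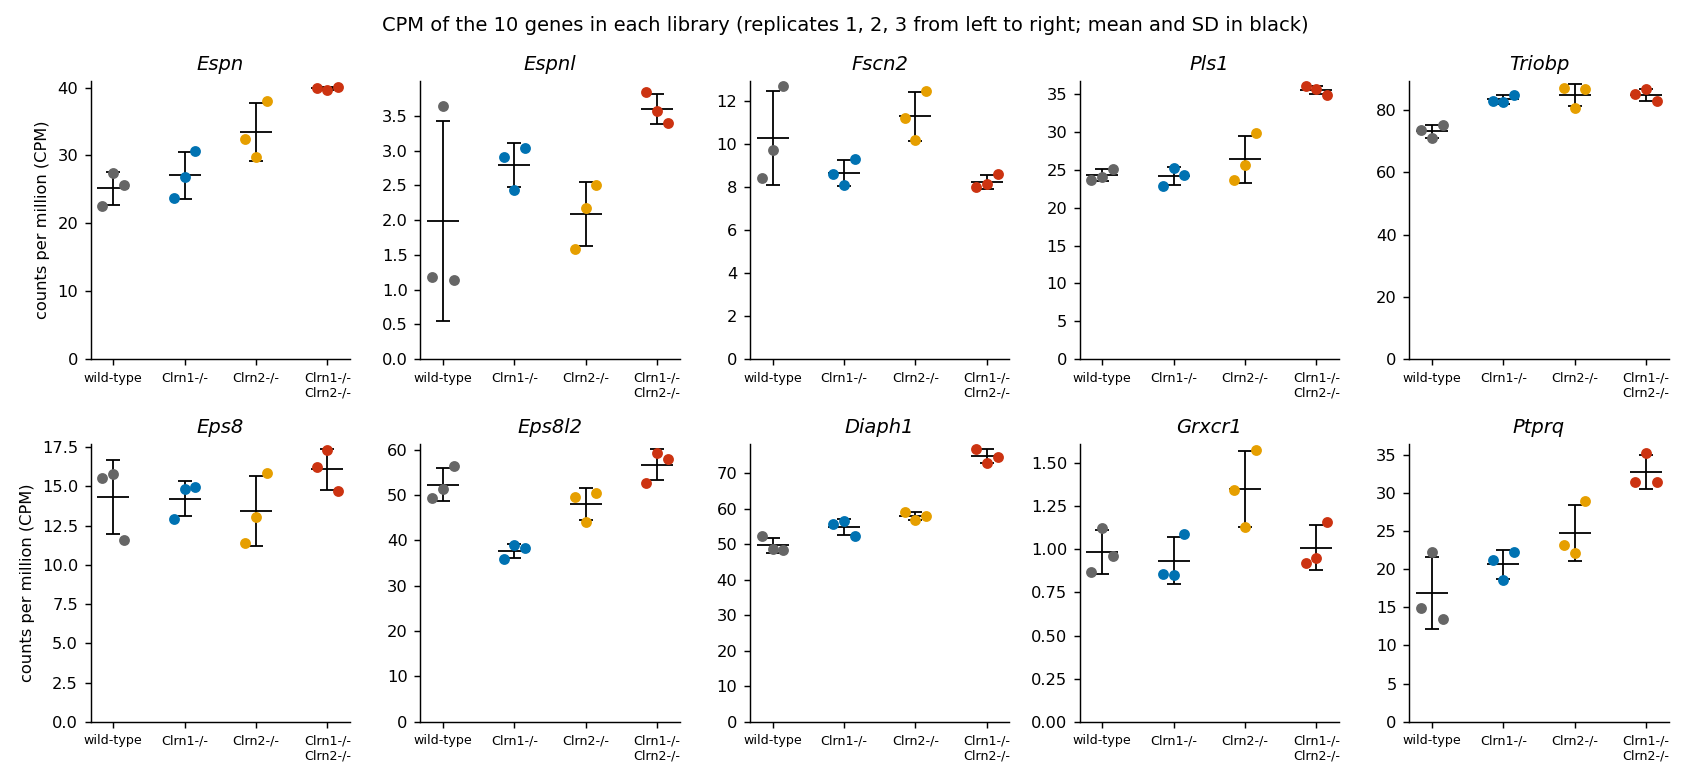
CPM of the 10 genes in each library, with replicates 1, 2 and 3 of a genotype from left to right and the mean and SD (n = 3) in black. The double mutant libraries of Pls1, Diaph1 and Ptprq are above every library of the other genotypes, and wild-type replicate 2 stands apart for Espnl (3.64 CPM).

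Eps8 encodes an actin capping and bundling protein carried to the tips of the tallest row (chr6:137477245-137654876, minus strand). It read 15.6, 15.8 and 11.6 CPM in wild-type mice, 12.9, 14.8 and 14.9 in Clrn1-/-, 11.4, 13.1 and 15.8 in Clrn2-/- and 16.2, 17.3 and 14.7 in the double mutants. All genotypes overlapped. The log2 fold change had a 95% interval of -0.27 to 0.26 in Clrn1-/-, -0.36 to 0.18 in Clrn2-/- and -0.10 to 0.43 in the double mutants, and none passed the test (edgeR adjusted p = 0.985, 0.704 and 0.319).

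Eps8l2, a relative of Eps8 at the tips of the shorter rows, had a different pattern (chr7:141338880-141363020, plus strand). It read 49.2, 51.3 and 56.3 CPM in wild-type mice, 36.0, 39.0 and 38.3 in Clrn1-/-, 49.6, 44.0 and 50.5 in Clrn2-/- and 52.7, 59.2 and 58.0 in the double mutants. All Clrn1-/- libraries were below every library of the other genotypes. The log2 change of -0.47 ± 0.07 in Clrn1-/- mice passed the adjusted p alone (edgeR, 7.53e-05), and was -0.23 (0.0960) with the libraries scaled to hair cell markers, where the median of all genes stood at 0.24. That of -0.12 ± 0.06 in Clrn2-/- and 0.12 ± 0.06 in double mutants did not pass (edgeR adjusted p = 0.235 and 0.175). The double mutants were above Clrn1-/- mice by 0.59 ± 0.07 (edgeR adjusted p = 6.24e-06), at the edge of the fold minimum, and the call was lost under 15 of 21 alternatives. They were above Clrn2-/- mice by 0.24 ± 0.06 (edgeR adjusted p = 0.0118), and by 0.17 to 0.21 without Clrn2-/- replicate 2 or double mutant replicate 2 or 3 (0.0565 to 0.0742). On the other strand, B230206H07Rik covers 1729 exonic bases of Eps8l2, 32.2% of its exons, and 56.9% to 73.3% of the stranded reads on Eps8l2 ran in that orientation. The counts used are those of the strand of Eps8l2. B230206H07Rik averaged 131 ± 3 CPM in wild-type and 132 ± 18 in Clrn1-/- mice (SD, n = 3), with a log2 change of 0.00 ± 0.08 (edgeR adjusted p = 0.977).

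Diaph1 encodes a formin that nucleates and elongates unbranched filaments (chr18:37843601-37935476, minus strand). It read 52.2, 48.6 and 48.5 CPM in wild-type mice, 55.6, 56.5 and 52.3 in Clrn1-/-, 58.9, 56.7 and 58.0 in Clrn2-/- and 76.8, 72.8 and 74.6 in the double mutants. Every mutant library was above every wild-type library, and the double mutants stood well apart from both single mutants. Diaph1 was over-expressed in the double mutants with a log2 change of 0.59 ± 0.05 (edgeR adjusted p = 7.79e-08), and its fold of 1.503 was hardly above the minimum of 1.5. The smaller changes of 0.14 ± 0.05 in Clrn1-/- and 0.22 ± 0.05 in Clrn2-/- mice passed the adjusted p alone (edgeR, 0.0332 and 0.00424). The double mutants were above Clrn1-/- mice by 0.45 ± 0.05 and above Clrn2-/- mice by 0.37 ± 0.05 (edgeR adjusted p = 2.35e-06 and 2.64e-05). The value in Clrn1-/- mice was 0.12 to 0.13 without wild-type replicate 2 or 3 or Clrn1-/- replicate 1 or 2 (edgeR adjusted p = 0.0849 to 0.110). The call in the double mutants was kept without wild-type replicate 1, Clrn2-/- replicate 1 or double mutant replicate 2, and was lost without any other single library, with 0.56 to 0.58.

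Grxcr1 encodes a protein with a glutaredoxin domain that shapes stereocilium width and actin organization (chr5:68031835-68166398, plus strand). It read 0.871, 1.12 and 0.961 CPM in wild-type mice, 0.854, 0.854 and 1.09 in Clrn1-/-, 1.34, 1.13 and 1.57 in Clrn2-/- and 0.918, 0.951 and 1.16 in the double mutants. The Clrn2-/- libraries were above those of wild-type by a narrow gap, and the others overlapped with wild-type. The log2 change of 0.46 ± 0.20 in Clrn2-/- mice did not pass the test (edgeR adjusted p = 0.153), with 27 to 56 reads per library. In Clrn1-/- mice the 95% interval was -0.52 to 0.37, and in the double mutants -0.40 to 0.49.

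Ptprq encodes a receptor-type phosphatase of the shaft connectors near the stereocilium base (chr10:107517049-107720051, minus strand). It read 14.9, 22.2 and 13.5 CPM in wild-type mice, 21.1, 18.6 and 22.3 in Clrn1-/-, 23.1, 22.2 and 29.0 in Clrn2-/- and 31.4, 35.3 and 31.4 in the double mutants. The double mutants were above every other library, and wild-type replicate 2 reached the level of the single mutants. Ptprq was over-expressed in the double mutants with the largest change of the 10 genes, a log2 change of 0.96 ± 0.14 (edgeR adjusted p = 7.37e-05). In Clrn2-/- mice 0.56 ± 0.15 passed the adjusted p alone (edgeR, 0.0182), and in Clrn1-/- mice 0.30 ± 0.15 did not (0.156). Without wild-type replicate 2, these were 1.20, 0.81 and 0.55 (edgeR adjusted p = 9.64e-07, 2.97e-04 and 0.00255), and the gene was then called in Clrn2-/- mice too, as it was without Clrn2-/- replicate 1 (0.61) or 2 (0.63). Without wild-type replicate 1 or 3 or Clrn2-/- replicate 3, the value in Clrn2-/- mice was 0.42 to 0.48 (edgeR adjusted p = 0.0542 to 0.0955). The double mutants were above Clrn1-/- mice by 0.66 ± 0.14, which was called (edgeR adjusted p = 0.00211) but stood at 0.58 without Clrn1-/- replicate 2, just under the fold minimum. They were above Clrn2-/- mice by 0.40 ± 0.14 (edgeR adjusted p = 0.0459), a value that no longer passed without any of 9 of the 12 libraries (0.0534 to 0.171), the exceptions being wild-type replicates 2 and 3 and Clrn2-/- replicate 3. Wild-type replicate 2 was the highest of the 3 wild-type libraries for both Espnl and Ptprq.

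Counted over the 10 genes, the double mutants had 4 over-expressed, namely Espn, Espnl, Diaph1 and Ptprq, and 0 under-expressed by edgeR, against 5.88% and 4.02% of all genes tested. By the adjusted p alone, 6 were higher, with Pls1 and Triobp added, and 0 lower, against 19.1% and 17.9% of all genes. At an unadjusted p under 0.05 there were 7, and 0 were under-expressed by limma-voom or DESeq2. These 7 were the 6 higher genes and Fscn2, which was lower (log2 change -0.32). Such unadjusted counts, here and below, pool both directions, and no share of all genes was counted for them. Libraries of 5 of the 10 genes were all above wild-type and of 0 all below, against 25% and 23.2% of all genes. The median log2 fold change was 0.38 over the 10 genes and 0.00 over all genes.

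For Clrn1-/- against wild-type mice, 0 of the 10 genes were over-expressed and 0 under-expressed by edgeR, limma-voom or DESeq2, against 3.52% and 3.7% of all genes. The adjusted p alone was passed by 2 genes upward, Triobp and Diaph1, and by 1 downward, Eps8l2, against 13.6% and 13.3% of all genes, and 3 had an unadjusted p under 0.05. These shares of 10 genes were near those of all genes. Libraries of 2 genes were above and of 1 gene below wild-type, against 20.5% and 19.8% of all genes. The median log2 fold change was 0.05 over the 10 genes and 0.00 over all genes.

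For Clrn2-/- against wild-type mice, 0 genes were called upward and 0 downward by edgeR or DESeq2, against 1.24% and 1.42% of all genes, while limma-voom called 1, Ptprq. The adjusted p alone was passed upward by 4, namely Espn, Triobp, Diaph1 and Ptprq, and downward by 0, against 7.14% and 7.07% of all genes, and 5 had an unadjusted p under 0.05. Libraries of 4 genes, Espn, Triobp, Grxcr1 and Diaph1, were above wild-type, against 14.6% of all genes. The median log2 fold change was 0.17 over the 10 genes and 0.00 over all genes.

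**Figure D3:**
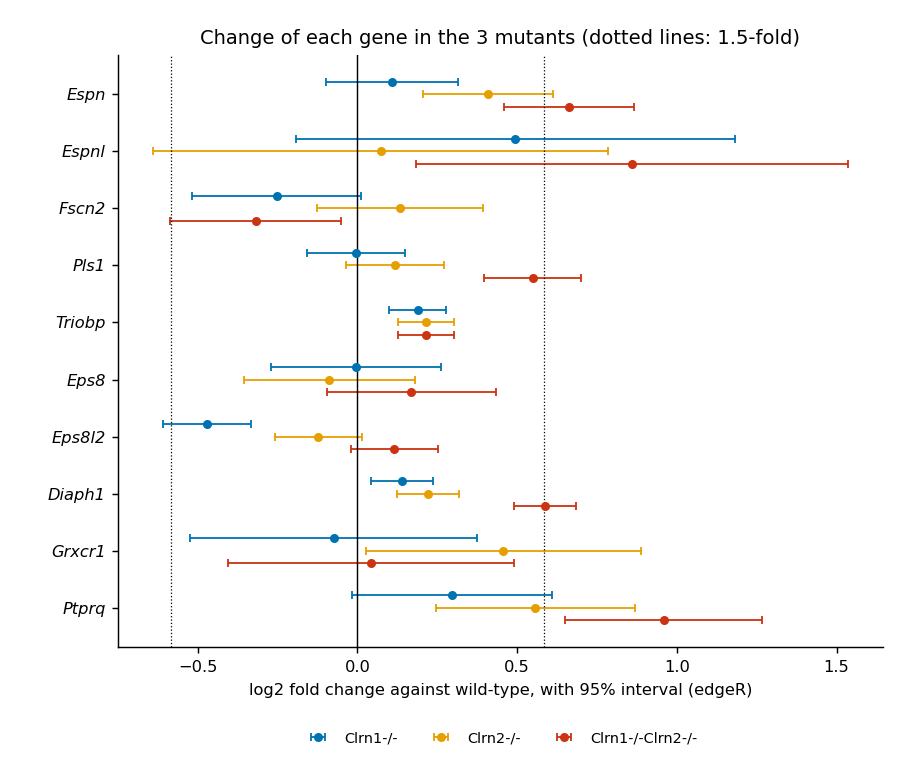
Log2 fold change of each gene against wild-type in the 3 mutants, with 95% intervals from edgeR and dotted lines at 1.5-fold. In the double mutants, 4 genes were called, led by Ptprq at 0.96, and Eps8l2 in Clrn1-/- mice lies at -0.47.

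Summed over the 10 genes, the level was 262 to 275 CPM in wild-type mice, 268 to 281 in Clrn1-/-, 286 to 325 in Clrn2-/- and 350 to 359 in the double mutants. The sums overlapped between wild-type and Clrn1-/- mice, and those of Clrn2-/- mice and of the double mutants stood above them. Triobp, Eps8l2 and Diaph1 made up 27.2%, 19.4% and 18.5% of the wild-type sum. The 14 hair cell markers other than Calb2, a calcium-binding protein that neurons make too, summed to 352 to 404 CPM in wild-type mice, 327 to 399 in Clrn1-/-, 390 to 505 in Clrn2-/- and 441 to 464 in the double mutants. Of 15 hair cell markers, Clrn1-/- mice had 0 called higher, and those called lower included Gfi1, Slc17a8 and Chrna10 (log2 change -0.92, -0.89 and -0.77). Clrn2-/- mice had 3 called higher, Ocm, Chrna9 and Loxhd1 (0.83, 0.77 and 0.59), and 0 lower. The double mutants had 2 called higher, Ocm and Chrna9, and those called lower included Gfi1 (-0.69) and Calb2 (-0.73). Markers of supporting cells, which surround the hair cells and also express several of these genes, summed to 5436 to 5803 CPM in wild-type and 5780 to 6078 in the double mutants, with 4 of 13 called higher, Otoa, Cd44, Epyc and Fgfr3 (log2 change 1.59, 1.19, 1.02 and 0.94), and 1 lower, Prox1 (-0.83). Neuron markers summed to 12112 to 13303 CPM in wild-type and 8349 to 8500 in the double mutants, with 1 of 10 called higher, Prph (log2 change 1.02), and 4 lower, Snap25, Nefl, Nefh and Thy1 (-0.73, -0.62, -0.62 and -0.60). All 5 red blood cell markers were called lower in Clrn1-/- and in Clrn2-/- mice and 2 of the 5, Hba-a1 and Hba-a2 (-0.63 and -0.70), in the double mutants, and all 5 were called higher in the interaction term. They summed to 700.3 to 1139 CPM in wild-type mice, 278 to 379 in Clrn1-/-, 426 to 642 in Clrn2-/- and 535 to 714 in the double mutants. The 8 fibroblast and bone markers summed to 1632 to 2029 CPM in wild-type mice and 2376 to 2549 in the double mutants, with 2 called higher, Col3a1 and Ibsp (0.77 and 1.42), and 0 lower. These markers were named after their values were seen. The part of these shifts in the members' values was not tested.

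Libraries were also scaled to the hair cell markers instead of to all genes, by the geometric mean count of all 15, Calb2 and the called markers included. The median of all genes then moved to 0.24 in Clrn1-/-, -0.13 in Clrn2-/- and -0.06 in the double mutants on the log2 scale, and the median of the 10 genes to 0.29, 0.04 and 0.32. Espn, Espnl and Ptprq kept their call in the double mutants under this scaling, and Diaph1 came to 0.52 (edgeR adjusted p = 4.99e-04). By the adjusted p alone, 5 genes were then higher and 1, Fscn2 (-0.37, edgeR adjusted p = 0.0396), lower in the double mutants, while Triobp at 0.15 no longer passed (0.372). In Clrn2-/- mice, only Ptprq of the 4 genes still passed (0.42, edgeR adjusted p = 0.0364). In Clrn1-/- mice, 5 genes were higher, Espn, Espnl, Triobp, Diaph1 and Ptprq, with Espnl called (0.75, edgeR adjusted p = 0.0156), and 0 were lower. How many of the 10 genes differed in the single mutants thus depended on this scaling. The share of all genes that passed under it was not counted, so that these counts cannot be set against such a share.

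Double mutants were next set against each single mutant. Against Clrn1-/- mice, 2 of the 10 genes, Eps8l2 and Ptprq, were over-expressed and 0 under-expressed by edgeR, against 4.62% and 2.61% of all genes. By the adjusted p alone, 5 were higher, with Espn, Pls1 and Diaph1 added, against 15.7% of all genes, and libraries of 6 genes were all above, against 23.6%. Against Clrn2-/- mice, 0 were called upward and 0 downward by edgeR or DESeq2, against 3.67% and 1.43% of all genes, while limma-voom called 1, Espnl, with 0.81 (limma adjusted p = 0.0485). Here 4 genes, Eps8l2, Pls1, Diaph1 and Ptprq, were higher and 1, Fscn2, lower by the adjusted p alone, against 14.4% and 13.2% of all genes, and 7 had an unadjusted p under 0.05. Between the single mutants, 0 genes were called in either direction by edgeR, limma-voom or DESeq2, against 2.4% and 2.34% of all genes. Espn, Eps8l2 and Fscn2 were lower in Clrn1-/- than in Clrn2-/- mice by the adjusted p alone and 0 higher, against 8.99% and 9.51% of all genes, and 4 had an unadjusted p under 0.05. The Espn difference no longer passed without 1 of 5 libraries (edgeR adjusted p = 0.0504 to 0.177). With scaling to the hair cell markers, which put the median of all genes at 0.37 here, 5 were higher and 0 lower, so that this direction rests on the scaling. The share of all genes that passed under that scaling was not counted.

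The interaction term asks whether the log2 change in the double mutants differs from the sum of the changes in both single mutants. Eps8l2 had the largest interaction, 0.71 ± 0.09 (edgeR adjusted p = 9.18e-05) with a level that was low in Clrn1-/- mice and near wild-type in the double mutants. No other of the 10 genes was past the fold minimum in this term, against 3.58% of all genes upward and 1.92% downward. Pls1 at 0.44 ± 0.10 and Diaph1 at 0.23 ± 0.06 were higher in the double mutants than the sum (edgeR adjusted p = 0.00762 and 0.0222). Triobp at -0.19 ± 0.06 was lower than the sum (edgeR adjusted p = 0.0370), with a similar level in all 3 mutants. The adjusted p of Diaph1 was 0.0626 to 0.0855 without 1 of 5 libraries (wild-type replicate 1, Clrn1-/- replicate 3, Clrn2-/- replicate 2, double mutant replicate 1 or 3) and that of Triobp 0.0549 to 0.0694 without 1 of 3 (wild-type replicate 2, Clrn2-/- replicate 1, double mutant replicate 3) by edgeR. By the adjusted p alone these are 3 higher and 1 lower, against 9.32% and 8.06% of all genes. Under scaling to the hair cell markers, Eps8l2 was the 1 gene that still passed in the interaction (0.54, edgeR adjusted p = 0.0205), below the fold minimum, and Pls1, Diaph1 and Triobp did not pass (0.27, 0.06 and -0.36, with adjusted p = 0.315, 0.870 and 0.151). For Espn and Ptprq, the term was 0.15 ± 0.13 and 0.11 ± 0.20 (edgeR adjusted p = 0.515 and 0.781), with 95% intervals of -0.14 to 0.43 and -0.33 to 0.54.

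**Figure D4:**
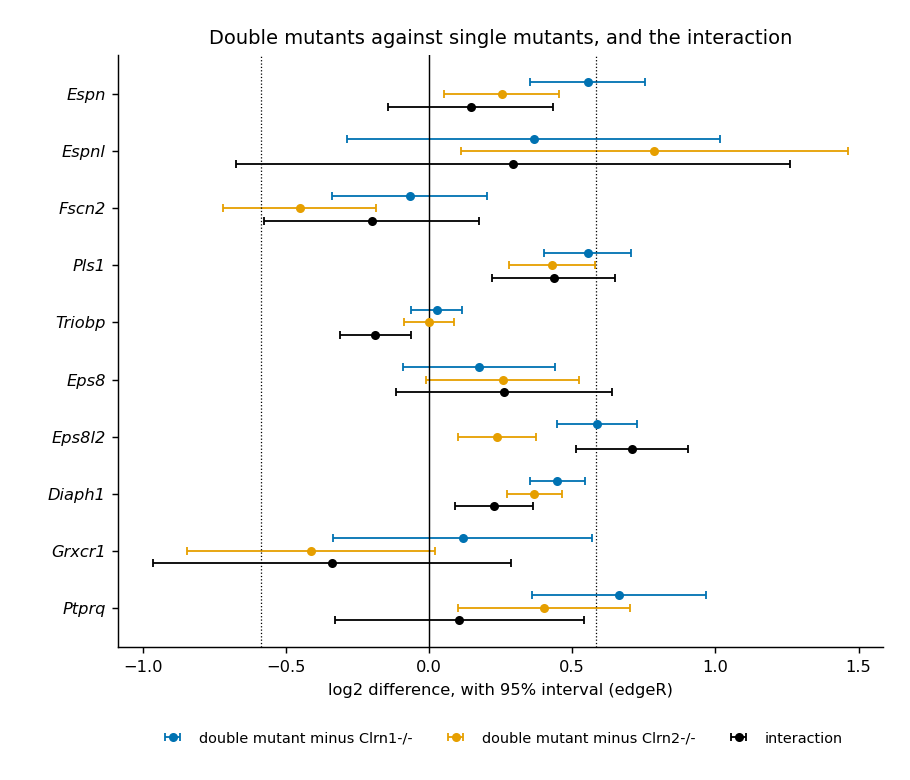
Log2 difference of each gene between the double mutants and each single mutant, and the interaction term, with 95% intervals from edgeR and dotted lines at 1.5-fold. The interaction of Eps8l2 (0.71) and of Pls1 (0.44) lies above 0, and that of Triobp (-0.19) below.

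The 10 genes did not share 1 pattern across the 12 libraries. Likeness was measured as the root mean square difference, over the libraries, of log2 CPM minus its wild-type mean, so that 0 is an identical pattern. Among pairs of the 10 genes, Pls1 and Diaph1 were the closest at 0.13, followed by Espn and Diaph1 at 0.18, and Espnl and Fscn2 were the farthest at 0.93. Among 12453 genes averaging 5 CPM or more, those most like Espn were Rorb (0.08), a nuclear receptor, Ctf1 (0.10), a cytokine, and Ush1c (0.10), which encodes the Usher scaffold protein harmonin. Ush1c averaged 39.2 ± 1.8 CPM in wild-type and 68.1 ± 0.9 in the double mutants (SD, n = 3). Those most like Diaph1 were Slc35f5 (0.05), Gusb (0.05), a lysosomal glucuronidase, and Ezr (0.05), which encodes ezrin, a linker of actin to the membrane. Those most like Ptprq were Cybrd1 (0.16), an iron reductase, Prr15l (0.17) and Dmgdh (0.17), a mitochondrial enzyme. Espnl had no close neighbour, the nearest being Il13ra1, F13a1 and Mrc1 at 0.33 to 0.34, the last a macrophage receptor. The 6 macrophage markers summed to 108 to 140 CPM in wild-type and 168 to 197 in the double mutants, with C1qb, Aif1 and Cd68 called higher (log2 change 0.67, 0.96 and 0.92) and 0 lower, and their part in the Espnl value was not tested.

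Other genes of the actin bundle were taken from lists by function, and Fscn1, Pls3, Lcp1, Grxcr2, Diaph2 and Diaph3 count in both a functional list and the list of paralogs. Of all genes tested, 5.88% were over-expressed and 4.02% under-expressed in the double mutants, 3.52% and 3.7% in Clrn1-/- and 1.24% and 1.42% in Clrn2-/- mice. Among 9 other actins and crosslinkers, 4 were over-expressed and 0 under-expressed in the double mutants. The median log2 change over the 9 genes was 0.48. The called genes were Xirp2 (0.83 ± 0.22), an actin-binding protein of stereocilia and muscle, Actn4 (0.70 ± 0.05), an alpha-actinin, Capg (0.70 ± 0.06), a filament capping protein, and Actn1 (0.60 ± 0.05), which the limit of 3 names per list left out and which was added after its value was seen (edgeR adjusted p = 0.00762, 3.29e-08, 2.21e-07 and 1.28e-07). With scaling to the hair cell markers or with no filter, 3 were over-expressed and Actn1 was not. Actn4 averaged 336 ± 1 CPM in wild-type mice, 373 ± 7 in Clrn1-/-, 356 ± 27 in Clrn2-/- and 547 ± 16 in the double mutants (SD, n = 3). Of the 9, 0 were called in Clrn1-/- mice by edgeR, and 1, Xirp2, was over-expressed in Clrn2-/- mice (0.71 ± 0.22, edgeR adjusted p = 0.0439).

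Among 22 genes of filament ends, formins and turnover, 3 were over-expressed and 1 under-expressed in the double mutants, with a median of 0.11. The share called lower, 1 of 22, was near that of all genes. Gsn, which encodes the severing protein gelsolin, had a log2 change of 1.24 ± 0.06, and Twf1, which encodes twinfilin-1, a filament end binder, 1.09 ± 0.05 (edgeR adjusted p = 2.59e-10 and 6.87e-10). Tmod1, which encodes the pointed-end cap tropomodulin-1, had 0.84 ± 0.08, and Cap2, which encodes an actin monomer regulator, -0.86 ± 0.08 (edgeR adjusted p = 7.03e-07 and 2.97e-07). Gsn averaged 654 ± 27 CPM in wild-type and 1549 ± 37 in the double mutants, and Cap2 46.3 ± 2.9 and 25.5 ± 1.9 (SD, n = 3). Cap2 was lower still at 18.1 ± 1.8 CPM in Clrn1-/- mice, where Capza1, a subunit of a filament capping protein, was under-expressed as well (log2 change -1.07 ± 0.06, edgeR adjusted p = 3.32e-09), a gene added after its value was seen. In Clrn2-/- mice 0 of the 22 were called by edgeR.

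Among 9 genes of row identity and the stereocilium tip, such as Whrn and Myo15, 0 were called in the double mutants by edgeR, limma-voom or DESeq2, with a median of -0.05. In the single mutants, Baiap2l2, a protein of the tips of the shorter rows, was under-expressed in both (-0.87 ± 0.17 in Clrn1-/- and -0.69 ± 0.17 in Clrn2-/- mice, edgeR adjusted p = 0.00136 and 0.0116), and Whrn, which encodes the tip scaffold whirlin, in Clrn2-/- mice (-0.66 ± 0.09, 2.28e-04). These were added after their values were seen, as were Lmo7 and Ptpro. Among 15 genes of the stereocilium base, taper, rootlet and cuticular plate, Slc9a3r1, an ezrin-binding scaffold, was over-expressed in double mutants (1.36 ± 0.06, edgeR adjusted p = 1.90e-10), and Ripor2, a protein of the stereocilium base, under-expressed (-0.62 ± 0.07, edgeR adjusted p = 3.49e-06). Slc9a3r1 averaged 70.5 ± 1.3 CPM in wild-type and 180.6 ± 6.2 in the double mutants (SD, n = 3). In Clrn1-/- mice Lmo7, a protein of the cuticular plate, was under-expressed (-0.79 ± 0.06, edgeR adjusted p = 1.65e-07), and 0 of the 15 were called by edgeR in Clrn2-/- mice. With library size alone as the scale, this list had 2 over-expressed (Ezr and Slc9a3r1) and 0 under-expressed genes in the double mutants. Of 13 paralogs of the 10 genes, 10 were tested, of which 0 were called in the double mutants by edgeR, limma-voom or DESeq2, with a median of 0.14. Ptpro, a receptor-type phosphatase, was over-expressed in Clrn1-/- mice (0.73 ± 0.14, edgeR adjusted p = 0.00121). Eps8l3, Fscn3 and Ptprh did not pass the filter and had no read in at least 1 library.

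**Figure D5:**
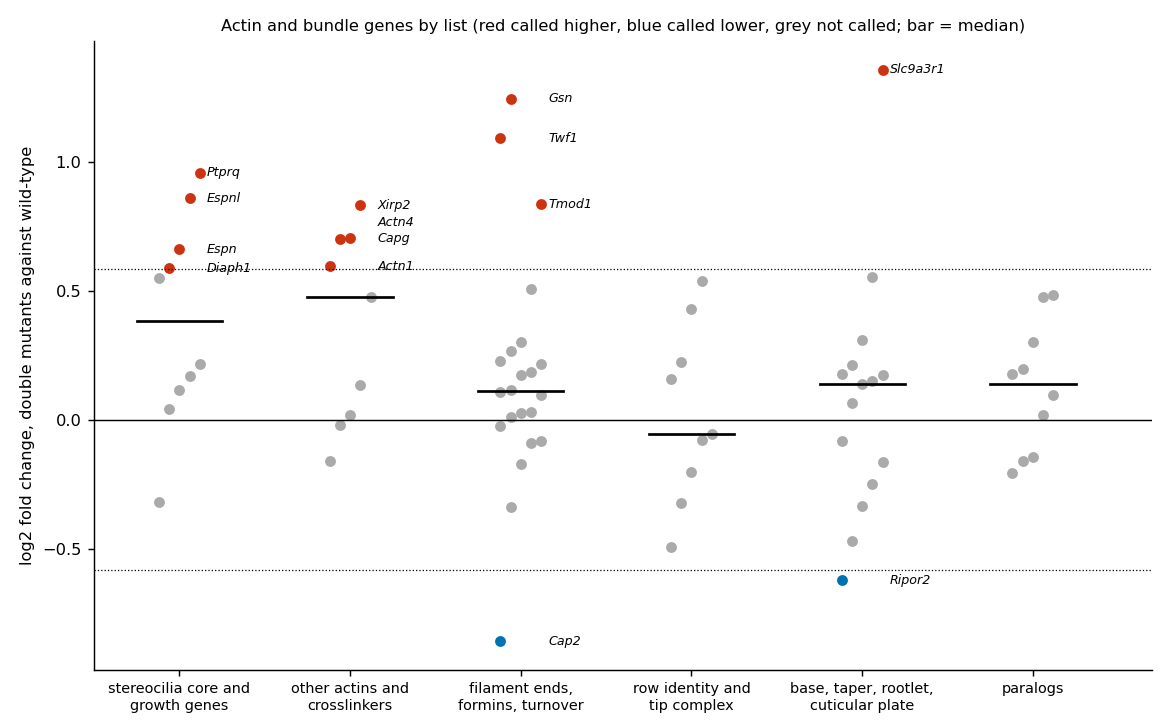
Log2 fold change in the double mutants against wild-type for each gene of 6 lists, with called genes in red (higher) or blue (lower) and named, genes not called in grey, the list median as a black bar and dotted lines at 1.5-fold. The largest value is that of Slc9a3r1 (1.36), and the lowest that of Cap2 (-0.86).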

How the data were processed

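Poly-A RNA of 12 libraries was sequenced with a strand-specific kit as paired reads of 100 bases. The authors deposited counts per gene, made with STAR on GRCm38.p6 and Gencode M24, as 3 columns (unstranded, forward and reverse), and the reverse column was used because it held 95.2% to 95.6% of the stranded counts. Reads not assigned to a gene (13.5% to 15.8%) were left out. The files hold each replicate separately. The methods say that n counts mice, from more than 1 litter per genotype, but do not tie a sequenced library to 1 animal or to a pool, so that p-values measure the spread between these libraries, which may be partly technical.

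In R 4.3.3, edgeR 4.0.16 kept genes by filterByExpr (minimum count 10), scaled libraries by TMM, fitted all 12 by genotype and applied its quasi-likelihood test, with p-values adjusted over 19052 genes (Benjamini-Hochberg). Calls needed a 1.5-fold change beside an adjusted p no higher than 0.05. Standard errors come from the F statistic. The fit was first tested on simulated counts. Coordinates and exon lengths come from Gencode M21, an earlier release on the same build. Alternatives used limma 3.58.1 (voom), DESeq2 1.42.0, other scalings, no filter, the genotypes compared alone, a replicate block, unstranded counts and each library left out.

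The members and lists were chosen with earlier results of these data known. Named are all members, up to 3 called genes per direction of each list in the double mutants, genes without reads in a library, and the 3 genes most like each called member. Same-numbered wild-type and Clrn1-/- libraries deviated together in every pair (lowest r = 0.105), as did, more weakly, those of Clrn1-/- and Clrn2-/- mice (0.024). Libraries of different numbers were not compared, so that these values do not show a pairing. Among the called hair cell markers, 1 is not reported here.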

Additional observations from a re-analysis of the deposited data

Results flagged for a closer look

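Of the 10 genes, 4 passed the adjusted p in the interaction term of edgeR, 3 upward and 1 downward, against 9.32% and 8.06% of all genes tested. Eps8l2 had an interaction of 0.71 on the log2 scale (edgeR adjusted p = 9.18e-05), Pls1 of 0.44 (0.00762), Diaph1 of 0.23 (0.0222) and Triobp of -0.19 (0.0370). Diaph1 no longer passed without 1 of 5 libraries and Triobp without 1 of 3. With the libraries scaled to the hair cell markers, Eps8l2 was at 0.54 (edgeR adjusted p = 0.0205), short of the fold minimum, and the other 3 genes did not pass. For Eps8l2, the 3 Clrn1-/- libraries (36.0 to 39.0 CPM) were below all others, and its 3 double mutant libraries (52.7 to 59.2 CPM) were not. Groups of 3 libraries were not examined for outlying samples.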

How the results depend on the processing

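Each comparison with wild-type was recomputed under 22 alternatives, 12 of which left out a library. In the double mutants, the call of Ptprq was kept under all 21 that keep the fold minimum, that of Espn under all but the one without wild-type replicate 1 (0.58), and those of Espnl and Diaph1 were lost under 11 and 13 of them. Espnl was lost with the 2 genotypes alone (adjusted p = 0.109) and without 10 of the 12 libraries in turn, and Diaph1 (0.52 to 0.58 where lost) because its fold lies at the minimum. Eps8l2 in the double mutants against Clrn1-/- mice, also at the minimum, was lost under 15 of 21. With a library left out, over-expressed members numbered 2 to 4 in the double mutants, 0 to 1 in Clrn1-/- and 0 to 2 in Clrn2-/- mice, 1 to 3 against Clrn1-/- mice and 0 to 1 against Clrn2-/- mice. The 1 in Clrn1-/- mice was Espnl without wild-type replicate 2.

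In Clrn1-/- mice, 1 member, Espnl, was over-expressed with scaling to the hair cell markers, and 2 were higher and 1 lower with no fold minimum. In Clrn2-/- mice, 1 was over-expressed under limma-voom and under library size alone, and 4 with no fold minimum. Double mutants against Clrn1-/- mice had 1 over-expressed under limma-voom, DESeq2, RLE size factors, library size alone, no filter and unstranded counts, 0 under the hair cell scaling and 5 with no fold minimum. Against Clrn2-/- mice there was 1 under limma-voom, the hair cell scaling, no filter and the 2 genotypes alone, and 4 higher and 1 lower with no fold minimum. Clrn1-/- against Clrn2-/- mice gave 1 over-expressed under the hair cell scaling and 3 lower with no fold minimum, and the interaction 0 over-expressed under that scaling, and 3 higher and 1 lower with no fold minimum. The causes were not tested.

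Scaling to the hair cell markers moved the median of all genes by 0.37 between Clrn1-/- and Clrn2-/- mice. There Espn (0.074), Eps8l2 (0.029), Pls1 (0.25), Triobp (0.35) and Diaph1 (0.30) changed sign, all at or below that median. Triobp did so too in the double mutants against Clrn1-/- mice (-0.28, with the median at -0.30). Each of these passed the adjusted p with at least 1 of the scalings. Values that passed with neither also changed sign, such as Ptprq between the single mutants (-0.26 to 0.12) and Eps8 in the double mutants against Clrn1-/- mice (0.17 to -0.12). Unstranded counts gave summed levels of 245 CPM in wild-type mice, 258 in Clrn1-/-, 281 in Clrn2-/- and 327 in double mutant libraries. The cause was not tested. The replicate block changed no call (adjusted p and fold) of a member, and Eps8l2 in Clrn1-/- mice was at -0.47 with it. What the shared replicate numbers mean is not stated. Grxcr1 and Espnl, at 27 to 133 reads per library, have the least precise values.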
